A study of Mus musculus with 18 samples.

Results

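The 49 genes described here are members of the cell cycle machinery, taken by symbol from the 21011 genes of the count table. All 49 were present and all passed the filter on low counts that left 16517 genes to test. They fall into 18 S phase genes, 30 mitotic genes and the G1 cyclin Ccnd1. No member value fell below 9 counts in any mouse.

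A dividing cell first licenses its replication origins with the Mcm2 to Mcm7 helicase, loaded by Cdc6 and Cdt1, and then copies its DNA under cyclin E and E2F control. It later condenses and separates its chromosomes under Cdk1 with the B cyclins, the Aurora and Polo kinases and the spindle checkpoint. In skin, basal keratinocytes of the interfollicular epidermis, sebaceous gland cells and, once a follicle enters growth, hair matrix cells divide. Krt71, a keratin of the inner root sheath, is made in growing follicles and served as a mark of growing hair. Notch receptors, of which Notch1 is one, signal through the DNA-binding protein Rbpj.

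Gene expression was measured by RNA sequencing in 18 mice, 1 library each. Tamoxifen was given at 8 weeks of age, and 10 weeks later the epidermis of dorsal skin was taken in telogen, when follicles rest. In 4 mice, called KR, Rbpj was deleted by K14-CreERT. In 3 mice, called LR, Rbpj was deleted by Lrig1-CreERT2, and in 4 mice, called KN1, Notch1 was deleted by K14-CreERT1. The K14 promoter is active in basal keratinocytes, and Lrig1 marks progenitors of the upper hair follicle. Controls from the same batch numbered 2 for KR, 3 for LR and 2 for KN1, and a mutant with its controls is called a cohort. The sources used here do not give the alleles of the controls. In bulk tissue, fewer dividing cells and less RNA per dividing cell cannot be told apart.

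Total counts ran from 8076316 to 21216169 per mouse. Rbpj had 40.9 to 45.9 CPM (counts relative to the library's total) in KR against 58.1 to 60.8 in the controls, and 29.9 to 37.9 against 42.7 to 73.1 in the LR cohort. Notch1 had 81.9 to 156 CPM in KN1 against 172 to 251. By edgeR Notch1 fell in KN1 (log2 fold change -0.91 ± 0.19 SE, adjusted p = 0.0251), and Rbpj was not called in KR (-0.47 ± 0.17, adjusted p = 0.135) or LR (-0.66 ± 0.17, adjusted p = 0.0659). KR control 6, LR control 5 and KN1 control 7 carry a second name in the labels and are called second-named. KR control 4 and KN1 control 1 each merge 2 sequencing occasions of 1 mouse. The defining basal keratinocyte markers were high in every mouse, 29000 to 44200 CPM in sum. Of the 7 endothelial markers in the table, the 4 that passed the filter summed to 3.07 to 11.7 CPM.

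The 2 main groups of members differ in the letters of their promoters. Sequences from 250 bases before to 50 bases after the annotated start were found in RefSeq (GRCm38.p6) for 40 of the 49 members. Mitotic promoters are known for the cell cycle homology region (CHR) and the CCAAT box, and S phase promoters for E2F sites. The CHR was searched as TTTGAA or TTCGAA, the CCAAT box as CCAAT, and the E2F site as TTTCCCGC, TTTGGCGC, TTTCGCGC or TTTGCCGC, each on both strands. A gene was counted if any of its promoters held the word, and Mcm7, Uhrf1, Ect2 and Prc1 had more than 1 promoter. A CHR word was found for 20 of 25 mitotic genes (80%), for 3 of 15 S phase genes (20%) and for 21.7% of all 27025 genes with a promoter. An E2F word was found for 7 of 15 S phase genes (46.7%), for 1 of 25 mitotic genes (4%) and for 2.6% of all these genes. CCAAT was found for 80% of the mitotic, 66.7% of the S phase and 41.1% of all these genes. A CHR word together with CCAAT in 1 promoter was found for 72%, 20% and 8.61%. These are matches of letters and no measurement of binding.

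The promoters of 2 mitotic and 2 S phase members are shown 5′ to 3′ as examples of these letters, with matched words in capitals. Cdk1 holds 2 CHR words, 3 CCAAT words and 1 E2F word, and Ccnb1 holds 2 CCAAT words and no CHR word. In Mcm5 the 2 E2F words overlap, and 3 CCAAT words follow. Cdc6 holds 1 E2F word alone. Its window lies wholly inside the gene as annotated in GENCODE M21, so sequence upstream of that gene start is not shown. The windows of E2f1 and Kif2c, counted above but not shown, also lie inside their genes.
Cdk1, chr10:69352863-69353162, minus strand: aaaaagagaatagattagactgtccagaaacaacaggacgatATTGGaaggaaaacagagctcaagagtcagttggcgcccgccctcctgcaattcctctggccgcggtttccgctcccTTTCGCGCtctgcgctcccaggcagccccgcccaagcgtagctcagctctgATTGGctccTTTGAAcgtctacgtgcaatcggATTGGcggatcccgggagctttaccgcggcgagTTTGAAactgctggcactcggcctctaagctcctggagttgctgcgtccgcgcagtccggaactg
Ccnb1, chr13:100786437-100786736, minus strand: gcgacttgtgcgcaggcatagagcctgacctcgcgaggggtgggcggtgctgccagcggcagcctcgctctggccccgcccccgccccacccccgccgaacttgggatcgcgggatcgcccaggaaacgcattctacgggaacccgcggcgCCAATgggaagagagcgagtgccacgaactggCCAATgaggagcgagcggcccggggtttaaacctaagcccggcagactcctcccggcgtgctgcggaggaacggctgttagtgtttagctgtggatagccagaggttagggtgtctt
Mcm5, chr8:75109259-75109558, plus strand: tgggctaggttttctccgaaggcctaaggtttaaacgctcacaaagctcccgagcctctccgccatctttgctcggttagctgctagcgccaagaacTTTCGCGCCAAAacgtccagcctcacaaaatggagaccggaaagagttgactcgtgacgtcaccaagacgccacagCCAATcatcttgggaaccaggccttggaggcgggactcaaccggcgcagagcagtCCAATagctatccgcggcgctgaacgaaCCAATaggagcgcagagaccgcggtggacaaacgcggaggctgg
Cdc6, chr11:98907901-98908200, plus strand: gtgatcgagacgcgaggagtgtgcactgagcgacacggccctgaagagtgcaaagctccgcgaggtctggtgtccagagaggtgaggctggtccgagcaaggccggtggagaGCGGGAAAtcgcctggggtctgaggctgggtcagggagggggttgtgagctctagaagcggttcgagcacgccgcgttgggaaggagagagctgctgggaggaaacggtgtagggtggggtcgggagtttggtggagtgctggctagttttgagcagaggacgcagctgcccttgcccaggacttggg

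Per kilobase of exon, the median over the 7 control mice was highest for Pcna, the sliding clamp of DNA polymerase, at 38.4 CPM per kb (range 28.4 to 48.8). Ccnd1, the cyclin of G1 entry, followed at 34.8 CPM per kb (24.2 to 52.5), and these ranges overlapped. Among the helicase genes Mcm6 had 23.1 CPM per kb (15.8 to 26.4) and Mcm2 had 8.22 (4.23 to 11.4). Most mitotic members were lower on the same scale, with Mki67 at 6.08 (3.96 to 14.3), Cdk1 at 2.11 (1.65 to 4.66) and the centromere motor Cenpe at 0.754 (0.544 to 1.86). The origin licensing factor Cdc6 had 0.746 CPM per kb (0.394 to 1.31). Between the highest and the lowest of the 18 mice, CPM differed by a median of 3.85-fold for mitotic members and 2.39-fold for S phase members. The spread was widest for Ube2c, which marks mitotic cyclins for destruction, among mitotic members (6.67-fold) and for Ccne1, a cyclin E, among S phase members (6.65-fold).

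**Figure D1:**
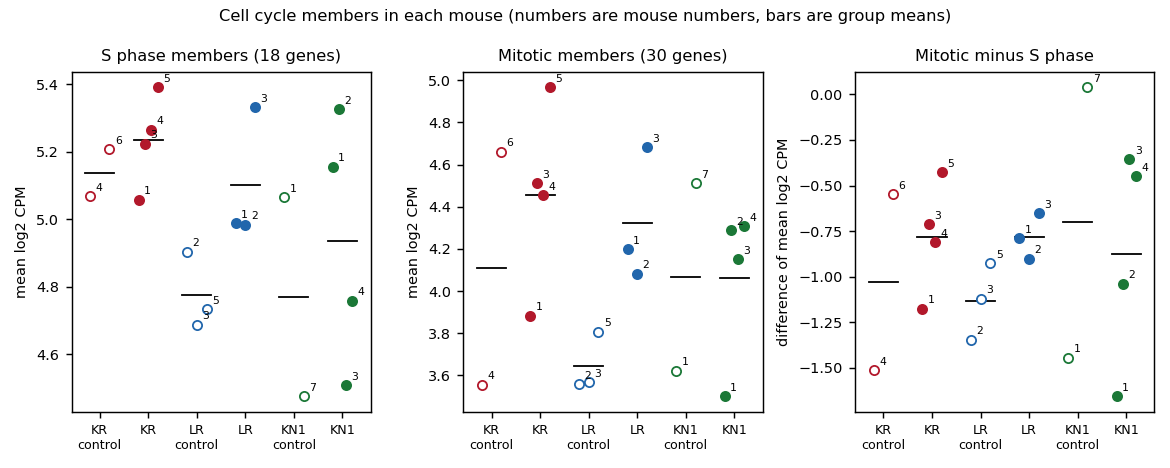
Mean log2 CPM of the 18 S phase members (left), of the 30 mitotic members (middle) and the difference of both (right), 1 point per mouse, with open points for controls, mouse numbers beside the points and bars for group means. The 3 LR mice lie above their 3 controls in all 3 panels, while KR and KN1 overlap their controls.

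In LR, the mitotic members were above the controls in most genes, yet none passed the test. The mean log2 CPM of the mitotic members was 4.32 ± 0.32 (SD, n = 3) in LR and 3.64 ± 0.14 (n = 3) in its controls. The S phase mean was 5.10 ± 0.20 against 4.78 ± 0.11. Of the 49 members, 45 had a positive log2 fold change, with a median of 0.56, beside 49.5% positive and 50.5% negative, with a median of -0.0041, over all genes tested. The median was 0.72 for mitotic members, 29 of 30 of them positive, and 0.29 for S phase members, 16 of 18 of them positive. With edgeR's quasi-likelihood test and Benjamini-Hochberg adjustment at 0.05, 0 members were called, beside 1.12% of all genes (0.872% higher, 0.248% lower), and the smallest adjusted p of a member was 0.135. DESeq2 also called 0 members. At an unadjusted p under 0.05, 15 members were higher and 0 lower, beside 7.82% and 7.65% of all genes. All LR mice lay above all controls in 23 members, 19 of them mitotic and 4 S phase, beside 10.3% of all genes, and below all controls in 1, Ccne2, beside 9.29%.

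Among the kinases and centromere genes of mitosis, Cenpa, the centromeric histone, had 20.7, 20.3 and 29.1 CPM in LR mice 1, 2 and 3, and 11.6, 11.6 and 9.57 CPM in LR controls 2, 3 and 5. All LR mice lay above all controls, and LR 3 was the highest (log2 fold change 1.09 ± 0.35 SE, edgeR adjusted p = 0.135). Aurkb, the kinase of the chromosomal passenger complex, had 12.3, 9.66 and 23.3 CPM in LR and 7.45, 7.34 and 5.37 CPM in the controls. The groups did not overlap, and LR 3 again stood highest (1.16 ± 0.37, edgeR adjusted p = 0.14). Cdk1, the kinase that drives entry into mitosis, had 15.5, 13.4 and 22.8 CPM against 10.4, 8.13 and 8.94. Its groups were also apart (0.91 ± 0.31, edgeR adjusted p = 0.168). Plk1, the Polo kinase, had 12.8, 8.80 and 15.9 CPM against 6.15, 8.59 and 5.46, with LR 2 close to LR control 3. Ccnb1, a B cyclin, had 13.1, 15.1 and 21.4 CPM against 11.2, 10.6 and 10.7.

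The proliferation marker Mki67 had 95.7, 107 and 158 CPM in LR and 59.1, 61.2 and 96.8 CPM in the controls, so LR 1 and LR control 5 overlapped. Top2a, which untangles sister chromatids, had 82.7, 84.9 and 113 CPM against 49.5, 47.3 and 75.0, with no overlap. Foxm1, a transcription factor of mitotic genes, had 17.5, 16.5 and 33.9 CPM against 9.10, 11.2 and 15.4, also with no overlap. The exception among the mitotic members was Ttk, a spindle checkpoint kinase, with a log2 fold change of -0.29 ± 0.28. It had 23.7, 19.7 and 16.7 CPM in LR and 15.8, 25.0 and 32.6 CPM in the controls, and here LR 3 was the lowest LR mouse.

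Among S phase members of the LR cohort, the helicase subunit Mcm7 had 80.4, 79.8 and 103 CPM in LR and 64.0, 56.8 and 68.3 CPM in the controls (0.48 ± 0.21, edgeR adjusted p = 0.286). Mcm3, another subunit, had 55.4, 71.2 and 77.8 CPM against 54.3, 36.2 and 51.8 (0.52 ± 0.24, edgeR adjusted p = 0.299). Both sets of mice were apart, for Mcm3 by a small gap between LR 1 and LR control 2. The licensing factor Cdt1 had 34, 30.5 and 51.2 CPM against 31.5, 29.7 and 17.3, and overlapped (0.56 ± 0.25, edgeR adjusted p = 0.292). Ccne1 had 3.07, 3.36 and 2.80 CPM against 2.13, 2.03 and 0.805. E2f1, the S phase transcription factor, had 28.7, 30.9 and 38.1 CPM against 26, 20.3 and 16.8, without overlap. Mcm2 had 61.3, 66.1 and 79.9 CPM against 57.2, 52.1 and 65.7, and Mcm5 had 66.1, 69.4 and 90.3 CPM against 60.9, 42.4 and 75.6. In both helicase genes LR control 5 reached into the LR range. Pcna, with 99.0, 101 and 111 CPM against 104, 92.2 and 68.1, and Rrm2, a subunit of ribonucleotide reductase, with 27.7, 18.4 and 31.0 CPM against 26.7, 22.4 and 12.8, overlapped their controls. Ccnd1 had 138, 188 and 111 CPM against 164, 137 and 192, and LR 3, highest for most members, was lowest for it.

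LR 3 held the highest value of the cohort in 29 of 30 mitotic and 13 of 18 S phase members. Without it the median of all members was 0.37 and that of the mitotic members 0.50, against 0.72 with it. In the same mice the 9 T cell markers all had negative log2 fold changes (summed level 73.6 to 146 CPM in LR and 147 to 224 in the controls), and 7 of them had an unadjusted p under 0.05. The 9 suprabasal markers were also all negative (11900 to 30400 CPM in sum against 20200 to 36600), and the hair markers other than Gata3, left out after its level was seen, summed to 53.5 to 1080 against 32.5 to 631 CPM. The sebocyte markers summed to 1630 to 2480 CPM in LR and 2770 to 3150 in the controls, without overlap, and 8 of 9 were negative with a median of -0.63 and none called. Mitochondrial transcripts took 0.839 to 1.17% of counts in LR and 0.892 to 2.26% in the controls. The part of these in the member values was not tested.

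**Figure D2:**
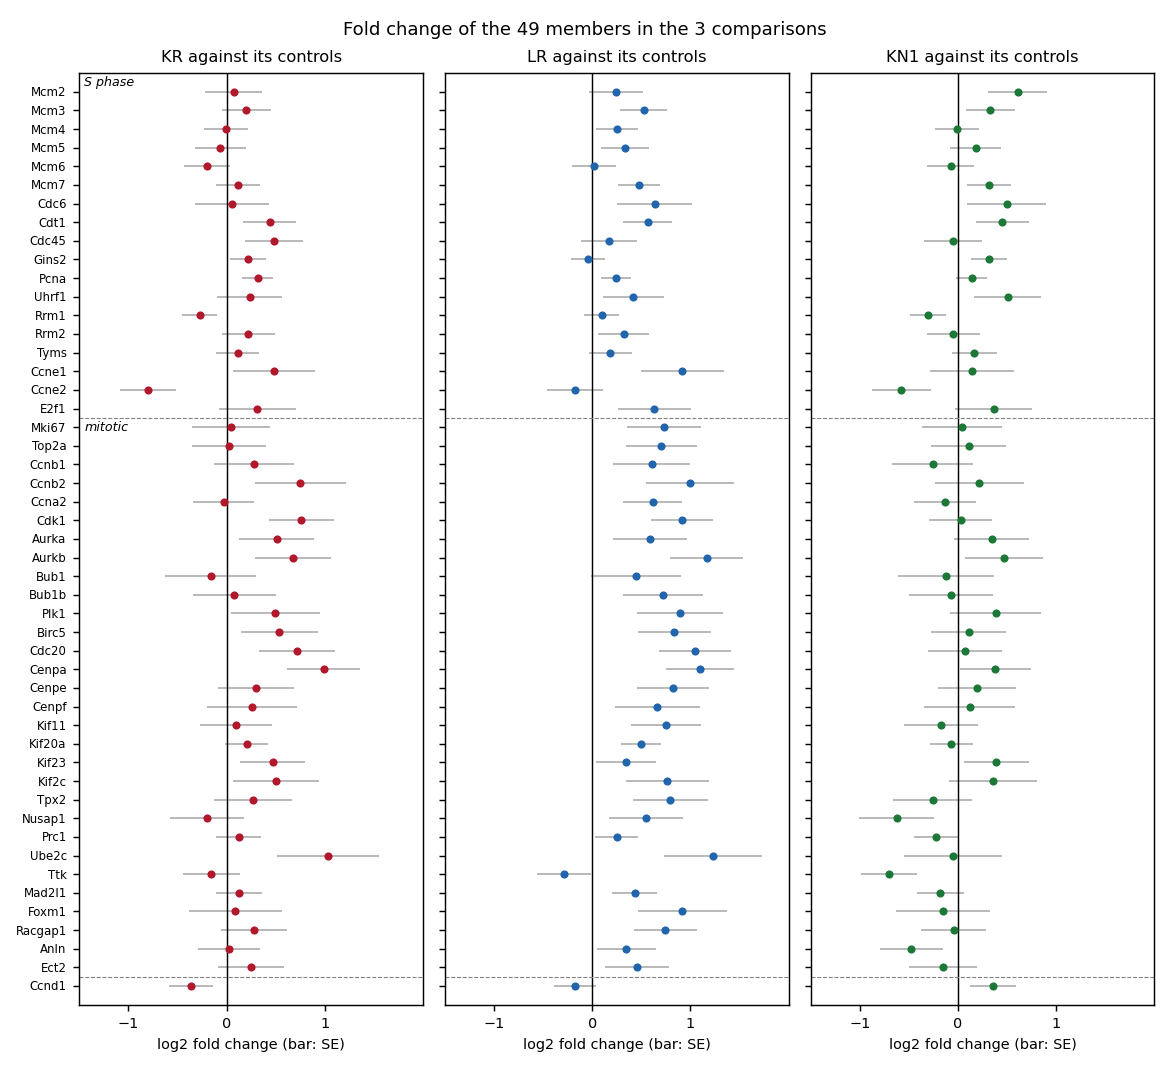
Log2 fold change (points) with its standard error (bars) of each of the 49 members in KR, LR and KN1 against their own controls, with S phase members above the first dashed line, mitotic members between the lines and Ccnd1 below. The LR points lie right of 0 in 45 of 49 members, and in KN1 the mitotic points lie on both sides of 0.

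In KR the members overlapped their controls in nearly all genes. The mitotic mean log2 CPM was 4.45 ± 0.44 (SD, n = 4) in KR and 4.11 ± 0.78 (n = 2) in its controls, and the S phase mean was 5.24 ± 0.14 against 5.14 ± 0.099. The median log2 fold change was 0.22 over the members, 39 of 49 of them positive beside 53.4% of all genes, 0.26 over mitotic and 0.16 over S phase members, beside 0.040 over all genes. edgeR called 0 members, beside 1.6% of all genes (0.696% higher, 0.902% lower), and DESeq2 called 0. At an unadjusted p under 0.05, 2 were higher and 1 lower, beside 11.2% and 11.7% of all genes. The groups were apart in 2 members upward (Pcna and Cdt1) and 1 downward (Ccne2), beside 19% and 19.5% of all genes.

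KR control 4 was lowest of its cohort in 25 of 30 mitotic members. KR 5 was highest in 23, and KR control 6 in the other 7. Mki67 had 63.6, 112, 95.8 and 141 CPM in KR mice 1, 3, 4 and 5, and 57.1 and 144 CPM in KR controls 4 and 6, so the controls enclosed all KR mice. Top2a had 57.7, 88.4, 85.1 and 133 CPM against 55.1 and 125, and Foxm1 had 12.1, 22.4, 18.8 and 26.9 CPM against 10.0 and 28.2. Ccnb1 had 11.3, 21.8, 20.6 and 33.2 CPM against 11.2 and 25.0. Plk1 had 9.02, 15.7, 17 and 24.4 CPM against 6.91 and 16.8, and Aurkb had 11.4, 18, 14.9 and 24.0 CPM against 7.10 and 14.5. KR 1 was the lowest and KR 5 the highest KR mouse in each of these.

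The smallest p among the KR mitotic members belonged to Cenpa, with 13.1, 23.5, 18 and 30.7 CPM in KR and 5.99 and 15.9 CPM in the controls (0.99 ± 0.37, edgeR adjusted p = 0.14). Cdk1 had 12.2, 17.4, 18.2 and 27.6 CPM against 9.03 and 13.4 (0.76 ± 0.33, edgeR adjusted p = 0.189). In both, KR 1 lay between the controls and the other KR mice lay above them. Ube2c had 11.2, 21.9, 22.3 and 38.4 CPM against 7.29 and 15.9 (1.03 ± 0.52, edgeR adjusted p = 0.246).

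Ccne2, the other cyclin E gene, went the other way, with 8.07, 7.43, 12.5 and 7.20 CPM in KR and 13.6 and 17.1 CPM in its controls (-0.80 ± 0.29, edgeR adjusted p = 0.123). All KR mice lay below both controls, KR 4 only narrowly. Its exons share up to 474 bases with those of Ints8 on the opposite strand, and the sources used here do not say if counting used strand. Pcna had 90.8, 94.0, 101 and 119 CPM against 86.4 and 76.4, and Cdt1 had 30.2, 34.1, 34 and 37.0 CPM against 25.7 and 24.1, both without overlap. Their log2 fold changes were 0.32 ± 0.16 and 0.44 ± 0.27 (edgeR adjusted p = 0.246 and 0.336). The other S phase members overlapped. Mcm2 had 73.5, 86.6, 79.4 and 92.9 CPM against 79.0 and 79.1, and Mcm5 had 72.5, 81.2, 80.3 and 97.4 CPM against 78.6 and 94.8. Rrm2 had 22.1, 28.1, 31.9 and 32.7 CPM against 20.8 and 28.6. Ccne1 had 2.49, 5.35, 4.91 and 4.44 CPM against 3.09 and 3.06, and E2f1 had 31.0, 39.9, 23.8 and 35.6 CPM against 28.9 and 23.4. For Ccne1, KR 1 lay below both controls and the other KR mice above them, and for E2f1, KR 4 lay between the controls and the others above. Ccnd1 had 147, 151, 226 and 199 CPM against 217 and 247, with KR 4 between the controls.

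The KR values turned on which control was used. Over all genes, 264 were called, and 5 without KR control 6. The mitotic median was -0.19 without KR control 4 and 0.96 without the second-named KR control 6. In the same cohort the 9 suprabasal markers all had negative fold changes and 1 was called, the Langerhans cell and macrophage markers summed to 1610 to 1870 CPM in KR and 756 to 1260 in the controls, and mitochondrial transcripts took 0.982 to 1.72% of counts against 1.87 to 3.17%. The part of these in the member values was not tested.

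In KN1 the members showed no common direction. The mitotic mean log2 CPM was 4.06 ± 0.38 (SD, n = 4) in KN1 and 4.07 ± 0.63 (n = 2) in its controls, and the S phase mean was 4.94 ± 0.37 against 4.77 ± 0.42. The median log2 fold change was 0.073 over the members, 27 of 49 of them positive beside 51.8% of all genes and 22 negative beside 48.2%, -0.047 over mitotic and 0.17 over S phase members, beside 0.018 over all genes. edgeR called 0 members, beside 1.97% of all genes (0.86% higher, 1.11% lower), and DESeq2 called 0. At an unadjusted p under 0.05, 0 were higher and 1 lower, beside 9.24% and 9.28% of all genes. The groups were apart in 0 members upward and 1 downward, Rrm1, beside 13.8% and 14.3%.

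KN1 control 7 was highest of its cohort in 20 of 30 mitotic members and lowest in 9 of 18 S phase members. Mki67 had 43.2, 78.0, 59.1 and 75.9 CPM in KN1 mice 1 to 4, and 39.8 and 85.5 CPM in KN1 controls 1 and 7, which enclosed them. Top2a had 44.8, 74.9, 77.9 and 102 CPM against 48.3 and 91.2, Cdk1 had 12.1, 17.4, 18.1 and 24.1 CPM against 12.5 and 23.0, and Ccnb1 had 7.92, 14.6, 15.8 and 19.5 CPM against 11.6 and 23.3. KN1 1 was the lowest KN1 mouse in all 3. Aurkb had 7.42, 16.0, 8.44 and 12.4 CPM against 6.88 and 9.22, Plk1 had 5.57, 17.9, 13.8 and 10.8 CPM against 6.37 and 12.4, and Foxm1 had 8.17, 20.0, 11.9 and 20.9 CPM against 10.9 and 23.5. KN1 2 was the highest KN1 mouse for both kinases.

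The mitotic members with the smallest p in KN1 had negative fold changes. Ttk had 13.2, 13.0, 24.8 and 19.3 CPM in KN1 and 22.5 and 34.8 CPM in the controls (-0.70 ± 0.29, edgeR adjusted p = 0.198). KN1 3 lay above KN1 control 1, and the other KN1 mice lay below both controls. Nusap1, a spindle protein, had 7.42, 9.61, 10.4 and 11.5 CPM against 9.53 and 20.8 (-0.62 ± 0.39, edgeR adjusted p = 0.399). Anln, a scaffold of the cleavage furrow, had 19.6, 26, 36.0 and 29.8 CPM against 24.4 and 53.5 (-0.47 ± 0.32, edgeR adjusted p = 0.445). In both, KN1 2, 3 and 4 lay above KN1 control 1 and all KN1 mice lay below KN1 control 7, without which the fold changes were 0.025 and 0.19.

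Among the KN1 S phase members, Mcm2 had 78.5, 85.8, 32.3 and 43.9 CPM in KN1 and 48.9 and 29.4 CPM in the controls (0.61 ± 0.30, edgeR adjusted p = 0.287). KN1 1 and KN1 2 lay above both controls, and the other two KN1 mice lay between them. Ccne2 had 6.31, 6.95, 4.01 and 4.60 CPM against 11.2 and 4.88 (-0.58 ± 0.30, edgeR adjusted p = 0.311), and Gins2, part of the replication fork helicase, had 77.8, 85.8, 60.1 and 67.9 CPM against 70.6 and 46.0 (0.32 ± 0.19, edgeR adjusted p = 0.371). E2f1 had 50.4, 46.1, 17.9 and 22.3 CPM against 37.5 and 15.1, and Mcm5 had 86.3, 85.2, 45.3 and 57.3 CPM against 73.0 and 47.5. Again KN1 1, KN1 2 and KN1 control 1 were high, and KN1 3, KN1 4 and KN1 control 7 low. Ccne1 had 2.72, 3.94, 1.80 and 1.95 CPM against 3.26 and 1.30. Pcna had 124, 146, 117 and 116 CPM against 117 and 111, and Rrm2 had 18.2, 26.4, 25.1 and 28.8 CPM against 22.1 and 29.0, without that split. Ccnd1 had 192, 202, 158 and 131 CPM against 153 and 114.

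Over all genes, 325 were called in KN1, and 2 without KN1 control 7. The KN1 mitotic median was -0.42 without KN1 control 1 and 0.49 without KN1 control 7. In the same cohort the 9 T cell markers all had negative fold changes and 3 were called (101 to 135 CPM in sum in KN1, 208 to 245 in the controls), and the hair markers, none of them called, had a median of 4.71 on the log2 scale. The Langerhans cell and macrophage markers summed to 1170 to 1410 CPM in KN1 and 1580 to 2250 in the controls, with 9 of 10 negative. Mitochondrial transcripts took 0.65 to 0.981% of counts against 1.11 to 1.23%. With Krt71 or the hair gene mean as a covariate the KN1 member median was negative, as given under processing below. Krt71 was 5.54 to 200 CPM in KN1 and 0.217 and 0.459 CPM in the controls. The Krt71 covariate and the deletion therefore cannot be fully told apart in this cohort. The part of these marker and mitochondrial differences in the member values was not tested.

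**Figure D3:**
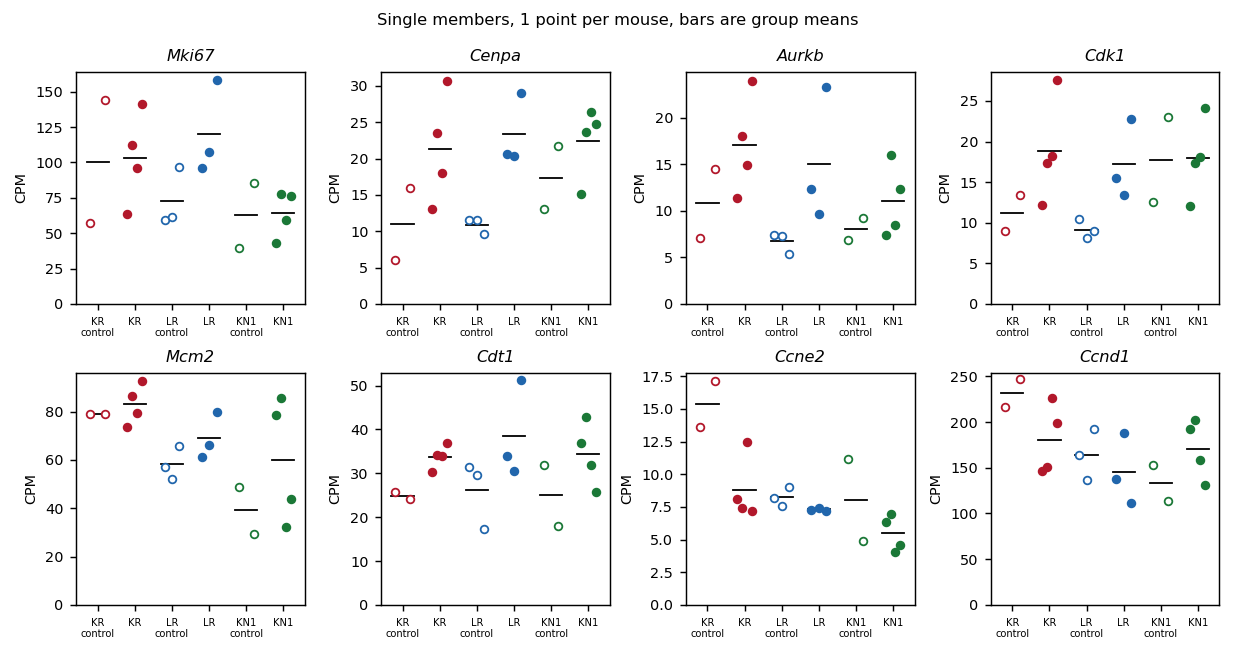
CPM of 8 members in each mouse, 1 point per mouse, with open points for controls and bars for group means. Cenpa, Aurkb and Cdk1 were apart in the LR cohort, Ccne2 lay below both controls in KR, and Mcm2 split the 4 KN1 mice into 2 high and 2 low.

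No member differed between mutants in the test of the difference itself. For LR minus KR, 44 of 49 members were positive with a median of 0.32, and the smallest edgeR adjusted p was 0.98, with 0 members at an unadjusted p under 0.05 in either direction (1.54% of all genes higher, 2.61% lower). Ccne2 had the smallest p (0.62 ± 0.41). For LR minus KN1, 44 of 49 members were positive with a median of 0.54, the smallest edgeR adjusted p was 0.686 and 1 member had an unadjusted p under 0.05 (3.37% of all genes higher, 3.66% lower), Nusap1 with 1.17 ± 0.54. For KN1 minus KR the median was -0.15, the smallest edgeR adjusted p was 0.636 and 1 member had an unadjusted p under 0.05 (3.52% of all genes higher, 4.06% lower), Ccnd1 with 0.72 ± 0.32. Over all genes, edgeR called 1 gene for LR minus KR, 0 for KN1 minus KR and 1 for LR minus KN1, or 0.00605%, 0% and 0.00605%.

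The balance of mitotic to S phase members varied between mice of 1 group. The mitotic minus S phase difference of mean log2 CPM was -0.79, -0.90 and -0.65 in LR 1, 2 and 3, and -1.35, -1.12 and -0.93 in LR controls 2, 3 and 5. These groups did not overlap, by a gap between LR 2 and LR control 5. It was -1.18, -0.71, -0.81 and -0.43 in KR 1, 3, 4 and 5, and -1.51 and -0.55 in KR controls 4 and 6. In KN1 1 to 4 it was -1.66, -1.04, -0.36 and -0.45, and in KN1 controls 1 and 7 it was -1.44 and 0.038. In each cohort the second-named control had the highest difference among the controls. With a covariate for the second name, the mitotic median was 0.88 in KR, 1.04 in LR and 0.53 in KN1. No mutant was second-named or merged, while every KR and KN1 control was. In these cohorts the covariate and the deletion cannot be fully told apart.

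In the KN1 cohort the S phase members also differed between mice with and without Xist counts. Each cohort held 3 mice with 1092 to 8536 counts of Xist, the RNA of the inactive X chromosome, and 3 mice with at most 9 such counts that had counts of the Y-linked Ddx3y and Eif2s3y. The labels give no sex, and these mice were compared after the values had been seen. In the KN1 cohort the mice with Xist were KN1 1, KN1 2 and KN1 control 1. Their S phase means were 5.16, 5.33 and 5.07, against 4.51, 4.76 and 4.48 in KN1 3, KN1 4 and KN1 control 7. All mice with Xist lay above all mice with Y-linked counts in 13 of 18 S phase members, beside 11.6% of all genes, and below them in 10 of 30 mitotic members, beside 11%.

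In a fit with 1 Xist term per cohort, edgeR called 10 of 18 S phase members higher in the mice with Xist of the KN1 cohort, beside 4.06% of all genes, and 0 lower, beside 3.54%. The median over S phase members was 0.64, with 17 of 18 positive. E2f1 had 44.6 CPM on average against 18.4 (log2 difference 1.28 ± 0.17, edgeR adjusted p = 0.000464), and Mcm2 had 71.1 against 35.2 (0.98 ± 0.13, edgeR adjusted p = 0.000488). Cdc6 had 5.59 against 2.63 CPM (1.07 ± 0.29, edgeR adjusted p = 0.0354). The other called members were Mcm3, Mcm4, Mcm5, Mcm6, Mcm7, Uhrf1, which binds newly copied DNA, and Ccne2. Pcna, Rrm1, Rrm2, Tyms, Cdc45, Cdt1, Gins2 and Ccne1 were not called. Of the mitotic members, 28 of 30 were negative with a median of -0.53, and edgeR called 0 of them, with 7 lower and 0 higher at an unadjusted p under 0.05, beside 10.3% and 11.7% of all genes. The S phase count was 3 without KN1 control 1, without KN1 control 7 and without KN1 3, and its median stayed between 0.59 and 0.69 whichever mouse of the cohort was left out. Shares of all genes called in those fits are not given here.

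The same contrast called 0 members in the KR cohort and 0 in the LR cohort, beside 0.139% and 0.127% of all genes higher and 0.0242% and 0.315% lower. Unadjusted p was under 0.05 for 1 higher and 1 lower S phase member in the KR cohort, beside 3.81% and 3.35% of all genes. In the LR cohort it was for 3 higher and 0 lower, beside 9.98% and 9.65%. The S phase median was 0.089 in the KR and 0.13 in the LR cohort. The smallest edgeR adjusted p of an S phase member in the LR cohort was 0.0786, for Mcm6. All LR cohort mice with Xist lay above all those with Y-linked counts in 5 of 18 S phase and 4 of 30 mitotic members. In the KR cohort they did so in 0 of either kind, and lay below in 1 S phase member. The shares of all genes for these counts are not given here. Mitotic members were positive in 19 of 30 in the KR cohort (median 0.026, beside -0.020 over all genes) and in 24 of 30 in the LR cohort (median 0.18, beside 0.017). The mice with Xist were KR 3, KR 5 and KR control 4, and LR 2, LR 3 and LR control 5, so Xist was not balanced between LR and its controls. Of the hair markers in the KN1 cohort, Gata3, which is also made outside growing hair, had 1100, 831 and 532 CPM in KN1 control 1, KN1 1 and KN1 2, and 391, 408 and 378 CPM in KN1 control 7, KN1 3 and KN1 4. Without Gata3 the other 15 hair markers summed to 63.8, 81.7 and 1010 CPM against 48.5, 73.1 and 346, and the sums overlapped. The part of these in the S phase values was not tested. With the Xist term of each cohort in the fit, edgeR called Ccne2 lower in KR (-0.81 ± 0.19, adjusted p = 0.0212) and Mcm2 higher in KN1 (0.57 ± 0.14, adjusted p = 0.0343). That term was chosen after the values had been seen, and without it edgeR called neither (adjusted p = 0.123 and 0.287). The share of all genes called in that fit is not given here.

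**Figure D4:**
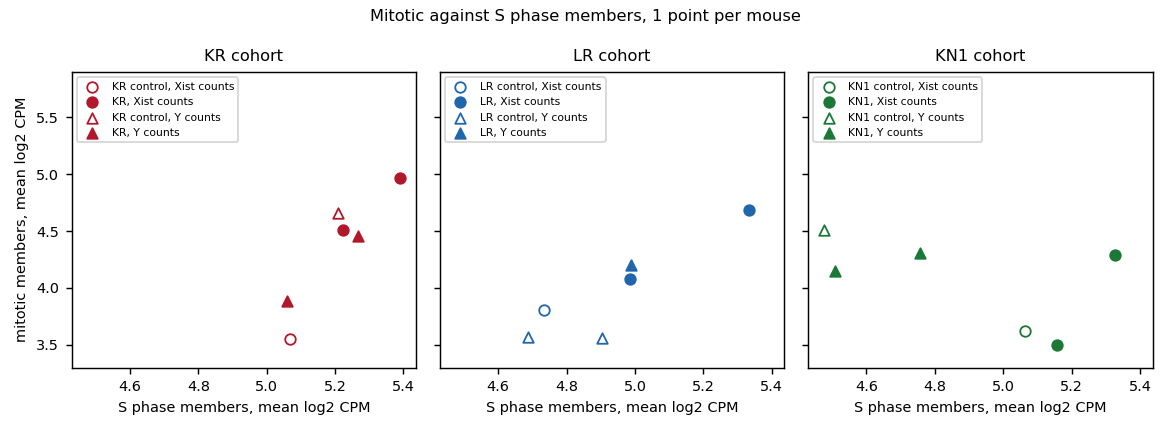
Mean log2 CPM of mitotic members (vertical) against S phase members (horizontal), 1 point per mouse and 1 panel per cohort, with circles for mice with Xist counts, triangles for mice with Y-linked counts and open symbols for controls. In the KN1 cohort the circles lie right of the triangles on the S phase axis (5.07 to 5.33 against 4.48 to 4.76).

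Krt71 split the mice into 10 with 0.217 to 6.06 CPM and 8 with 36.9 to 200 CPM, and each cohort held both kinds, in KN1 among the mutants only. As the values lie in separate clusters, no correlation over all mice is given. In the KR cohort the mitotic mean followed Krt71 in the main. Krt71 was 0.475, 36.9, 116 and 194 CPM in KR 1, 3, 4 and 5, and their mitotic means were 3.88, 4.51, 4.46 and 4.97. KR control 4 had 0.531 CPM of Krt71 with a mitotic mean of 3.56, and KR control 6 had 136 CPM with 4.66.

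In the LR cohort the order was another. LR 2 had the most Krt71, 198 CPM, and the lowest LR mitotic mean, 4.08, while LR 3 had 1.51 CPM and the highest, 4.68. LR control 2 had 128 CPM of Krt71 and a mitotic mean of 3.56, beside 3.57 and 3.81 in LR controls 3 and 5 with 0.339 and 0.268 CPM. In KN1, mice 2 and 4 had 200 and 83.4 CPM and mitotic means of 4.29 and 4.31, mice 1 and 3 had 6.06 and 5.54 CPM with 3.5 and 4.15, and KN1 control 7 had 0.217 CPM with 4.51.

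**Figure D5:**
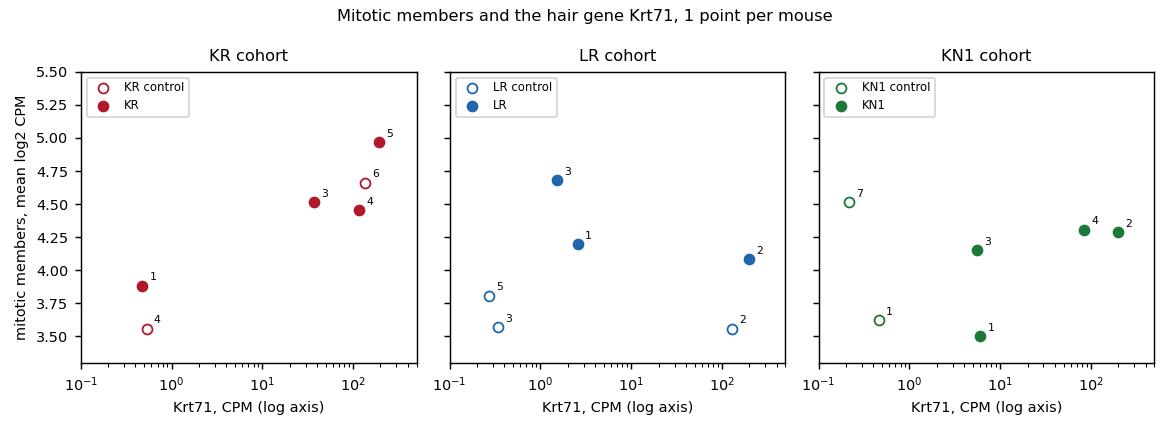
Mean log2 CPM of mitotic members against Krt71 in CPM (log axis), 1 point per mouse and 1 panel per cohort, with open points for controls and mouse numbers beside the points. The KR cohort runs from 3.56 at 0.531 CPM to 4.97 at 194 CPM, and the LR cohort has its highest mitotic mean, 4.68, at 1.51 CPM.

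Fitted within groups over all 18 mice, the slope on Krt71 was positive in 47 of 49 members, beside 46.2% of all genes. The median was a log2 change of 0.042 per doubling of Krt71 over the members, 0.054 over mitotic and 0.018 over S phase members, and -0.0019 over all genes. edgeR called 0 members, beside 0.509% of all genes, all of these with a positive slope. At an unadjusted p under 0.05, 3 members were positive and 0 negative, beside 2.69% and 1.56% of all genes. They were Birc5, the survivin subunit of the passenger complex (0.080 ± 0.031 per doubling, edgeR adjusted p = 0.951), Ccnb1 (0.076 ± 0.035) and Ube2c (0.092 ± 0.043). Aurka, the spindle pole kinase, followed with 0.070 ± 0.034. Of the 15 other hair matrix and inner root sheath genes, 11 were called positive in the same fit.

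The other genes of the cell cycle lists gave no call in any comparison. In LR, 50 of 54 other mitotic genes were positive with a median of 0.62. Of these 23 had an unadjusted p under 0.05, all higher, and 28 had all LR mice above all controls, beside 7.82% and 10.3% of all genes. Kifc1, a spindle motor, had 22.2 against 11.4 CPM (0.96 ± 0.26, edgeR adjusted p = 0.0758), and the condensin subunit gene Ncapd2 had 66.8 against 37.6 CPM (0.83 ± 0.23, edgeR adjusted p = 0.0851). Of 40 other replication genes in LR, 31 were positive with a median of 0.35, among them Rfc2, part of the clamp loader (0.51 ± 0.17), and Tk1, a thymidine kinase (0.64 ± 0.21). In KR the medians of these lists were 0.18 and -0.014, and in KN1 they were 0.12 and 0.096. Smc4, a condensin subunit gene, had 95.4 against 62.5 CPM in KN1 (0.61 ± 0.16, edgeR adjusted p = 0.0516).

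Of the CDK inhibitors, 6 of 7 could be tested and none was called. Cdkn2d, an inhibitor of the cyclin D kinases, lay above its own controls in all mice of KR, LR and KN1. Of all genes, 19%, 10.3% and 13.8% did so in these comparisons. The log2 fold changes of Cdkn2d were 0.53 ± 0.22 (SE) for KR, 0.45 ± 0.20 for LR and 0.40 ± 0.22 for KN1 (edgeR adjusted p = 0.16, 0.293 and 0.329). Cdkn1c, another inhibitor, had 0.57 ± 0.36, -0.66 ± 0.35 and -0.22 ± 0.35. Of the 24 G1 entry and E2F/pocket protein genes, Rb1, the retinoblastoma gene, was below both controls in all KR mice (36.7 against 56.9 CPM, -0.63 ± 0.19, edgeR adjusted p = 0.082). Mybl2, a transcription factor of mitotic genes, had 15.5 against 7.51 CPM in LR (1.04 ± 0.35, edgeR adjusted p = 0.153), and Cdk6, a cyclin D kinase, had 60.1 against 40.4 CPM in KN1 (0.57 ± 0.17, edgeR adjusted p = 0.0822). Of the 14 G2/M regulators and checkpoint kinases, Gadd45a, a growth arrest gene, had 17.5 against 8.19 CPM in LR (1.10 ± 0.28, edgeR adjusted p = 0.0627) and 13.3 against 6.84 CPM in KN1 (0.96 ± 0.31, edgeR adjusted p = 0.111). Cdc25c, the phosphatase that activates Cdk1, had 4.68 against 1.84 CPM in LR (1.31 ± 0.38, edgeR adjusted p = 0.106). Ccng1, a p53 target, was below both controls in all KR mice (-0.65 ± 0.20, edgeR adjusted p = 0.0909) and all KN1 mice (-0.74 ± 0.21, edgeR adjusted p = 0.0707).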

How the data were processed

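The authors deposited raw read counts for 21011 genes in 18 libraries. The submitters' processing notes name STAR, HTSeq, DESeq2 and mm10, without versions or roles. Strand use in counting is not stated there, and the exons of 12 of the 49 members share bases with another protein-coding gene (GENCODE M21).

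Each mutant was compared with its own controls in edgeR 4.0.16 under R 4.3.3 (quasi-likelihood F test, TMM factors, 6 group means over all 18 mice, filterByExpr). P-values are two-sided, adjusted by Benjamini-Hochberg over 16517 genes, called at 0.05, and measure only the spread between mice. CPM were computed from the counts, with a prior count of 2 for mean log2 CPM. DESeq2 1.42.0 was an alternative. The fit was tested on simulated data.

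Members and lists were chosen with earlier results of these data known, and the Xist comparison after its values were seen. Named are key members, the 3 S phase and 3 mitotic members with the smallest p per comparison, and up to 2 genes per other list. Against controls, the bulge, fibroblast, endothelial and sebocyte markers had 0 calls, though the sebocyte sum was lower in LR. The basal markers had 1 call in KR and 1 in KN1, and the melanocyte markers had 1 in KN1.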

Additional observations from a re-analysis of the deposited data

Results flagged for a closer look

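For 4 S phase members the difference between mice with Xist counts and mice with Y-linked counts was not the same in the KN1 cohort as in the other cohorts, by a test of that difference in edgeR chosen after the values had been seen. Relative to the mean of the KR and LR cohorts, the log2 difference in the KN1 cohort was larger by 1.12 ± 0.21 for E2f1 (SE, edgeR adjusted p = 0.00862) and by 0.777 ± 0.16 for Mcm2 (edgeR adjusted p = 0.0146). It was larger by 0.997 ± 0.25 for Ccne2 (edgeR adjusted p = 0.0365) and by 0.598 ± 0.16 for Gins2 (edgeR adjusted p = 0.0498). Of all genes, 2.13% were called in this direction. Of the mitotic members 29 of 30 had a negative difference, and edgeR called 0 of them (8 lower at an unadjusted p under 0.05, beside 9.48% of all genes). E2f1 was called under all 21 other settings tried, and Mcm2 under 20, the exception being the fit without KN1 3 (adjusted p = 0.0501). Ccne2 was called under 8 and Gins2 under 5. Dixon's outlier test was run on 36 sets of values from the 4-mouse groups, which did not cover every member, and gave 0 flags. It cannot flag a group that splits evenly into high and low mice. The exons of Gins2, 4097 bases in all, share up to 2758 bases with Gse1 on the opposite strand. Those of Ccne2, 3495 bases in all, share up to 474 with Ints8 on the opposite strand.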

How the results depend on the processing

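The LR medians were positive under all 32 settings. No single-gene value changed sign past the threshold, but no member passed it in the main comparisons. Below it signs did change. The log2 fold change of Mki67 ran from -0.48 to 1.03 in KR and from -0.42 to 1.00 in KN1, and from 0.48 to 1.15 in LR. Pooling all 7 controls gave 1 called member in KR (Aurkb) and 1 in KN1 (Ccne2), an S phase median of 0.372 in KR, and LR medians of 0.3125 for members and 0.4114 for mitotic members. Under the 13 settings other than leaving out 1 mouse, 12 to 1681 of all genes were called in KR and 19 to 1855 in KN1. These include the pooled fit and the fit with an Xist term, whose own shares of all genes are not given here. The KN1 member median was -0.2144 with Krt71 as a covariate, -0.1769 with the hair gene mean and -0.2467 without the 2 merged controls. Krt71 was higher in every KN1 mouse than in both controls, so there it cannot be fully told apart from the deletion. With the second-name covariate the medians were 0.6055 (members) and 0.8764 (mitotic) in KR, 1.039 (mitotic) in LR, and 0.4071 and 0.526 in KN1. In KR and KN1 this covariate cannot be fully told apart from the deletion, as every control and no mutant was second-named or merged. Without the 3 second-named controls the mitotic medians were 0.9606 in KR and 0.4857 in KN1. A term for Xist in each cohort, added after the values had been seen, gave 1 called member in KR (Ccne2) and 1 in KN1 (Mcm2). The cause of these shifts was not tested.

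Leaving out 1 mouse at a time moved the count of all genes called from 5 to 1353 in KR, 60 to 246 in LR and 2 to 640 in KN1. It moved the KR mitotic median from -0.1874 (without KR control 4) to 0.9607 (without KR control 6). It moved the KN1 member median from -0.2466 to 0.2757 and the KN1 mitotic median from -0.4222 to 0.485, without KN1 control 1 and without KN1 control 7. The count of S phase members higher in mice with Xist ran from 3 to 10, and that of members whose Xist difference varied between cohorts from 1 (without KN1 3) to 10 (without KR control 4 or 6). For these counts the shares of all genes are not given here. With a replicate block in the LR cohort, 0 members were called and 8 had an unadjusted p under 0.05, all higher, beside 6.87% of all genes higher in that fit, with medians of 0.6623 (members), 0.3941 (S phase) and 0.8851 (mitotic). Control numbers run through all cohorts, so a shared number need not mark a pair and the block may join unrelated mice. Correlations between LR mice and controls of the same number were 0.0656 and -0.0842, which cannot settle pairing. KR and KN1 each share only 1 number with their controls. Groups of 2 controls limit the KR and KN1 comparisons.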
